A study of Mus musculus with 36 samples.

Results

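The transcripts described here are those of 10 genes of the insulin and insulin-like growth factor (IGF) pathway in mouse kidney: Igf1, Insr, Igf1r, Igfbp1, Igfbp3, Irs1, Irs2, Pik3r1, Foxo1 and Foxo3. They were taken by symbol from tables of 24883 rows, and each of the 10 symbols was found once. Of the 10, 7 reached a mean of 1 FPKM and were tested with the other genes at that level, 11144 in all. FPKM, the deposited unit, counts sequenced fragments relative to transcript length and to the number of fragments mapped. Irs1, Irs2 and Foxo3 lay under that level and are described without a place in the main tests.

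The kidneys came from wild-type male C57BL/6 mice (C57BL/6J in the sample labels) that ate normal chow or a high-fat diet, both without restriction, while lights were on for 12 h and off for 12 h. The mice were 6 weeks old when put on these regimes, and the labels give 16 weeks for the harvest. Organs were collected at zeitgeber time (ZT, hours after lights on) 0, 4, 8, 12, 16 and 20, with 3 samples for each diet and time and 36 libraries in all. The title of the series concerns how the high-fat diet reshapes daily cycles in the kidney, so each gene was examined for a 24 h rhythm within each diet, for a difference between those rhythms, and for a difference in level.

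Insulin and IGF1 bind related receptor tyrosine kinases, encoded by Insr and Igf1r. The active receptors phosphorylate adaptor proteins such as IRS1 and IRS2, which recruit phosphoinositide 3-kinase, of which Pik3r1 encodes a regulatory subunit, and this activates the kinase AKT. AKT keeps the transcription factors FOXO1 and FOXO3 out of the nucleus, so their targets, among them genes of glucose production, are expressed more when insulin is low. Binding proteins carry IGFs in blood and tissue fluid and limit their access to the receptor: IGFBP3 is the main carrier in the circulation, and IGFBP1 is a short-lived form whose gene is repressed by insulin and induced by fasting. In the kidney, insulin acts on podocytes and tubule cells, influences sodium reabsorption and restrains glucose production in the proximal tubule.

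The results turn on Igfbp1, Igfbp3 and Igf1, and the sequences around their transcription starts are shown for that reason. Igfbp1 and Igfbp3 are neighbours on chromosome 11. Igfbp1 spans chr11:7197782-7202546 on the plus strand and Igfbp3 spans chr11:7206086-7213923 on the minus strand, so the pair point towards each other with 3539 bases between their annotated 3′ ends. Igf1 lies on chromosome 10, at chr10:87858265-87937042 on the plus strand. Gene spans were read from the GENCODE M21 annotation of GRCm38 (mm10). The windows below run 5′ to 3′ from 250 bases before to 50 bases after a start site in RefSeq (GRCm38.p6): chr11:7197537-7197836 on the plus strand for Igfbp1, chr11:7213874-7214173 on the minus strand for Igfbp3 and chr10:87860861-87861160 on the plus strand for Igf1. Capitals mark the letters CAAAACA, the core of the insulin response sequence to which FOXO factors bind.
Igfbp1: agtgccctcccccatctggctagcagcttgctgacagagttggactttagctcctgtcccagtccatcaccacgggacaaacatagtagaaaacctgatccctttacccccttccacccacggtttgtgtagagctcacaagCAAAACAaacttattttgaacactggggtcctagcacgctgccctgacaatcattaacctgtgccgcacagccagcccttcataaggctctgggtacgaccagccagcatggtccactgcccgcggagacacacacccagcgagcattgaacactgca
Igfbp3: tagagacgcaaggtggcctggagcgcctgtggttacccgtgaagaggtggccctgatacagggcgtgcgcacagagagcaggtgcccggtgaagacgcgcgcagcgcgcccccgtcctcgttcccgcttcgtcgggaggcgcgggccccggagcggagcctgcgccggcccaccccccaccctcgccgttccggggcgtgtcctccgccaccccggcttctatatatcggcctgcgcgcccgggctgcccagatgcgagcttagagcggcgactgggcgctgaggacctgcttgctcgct
Igf1: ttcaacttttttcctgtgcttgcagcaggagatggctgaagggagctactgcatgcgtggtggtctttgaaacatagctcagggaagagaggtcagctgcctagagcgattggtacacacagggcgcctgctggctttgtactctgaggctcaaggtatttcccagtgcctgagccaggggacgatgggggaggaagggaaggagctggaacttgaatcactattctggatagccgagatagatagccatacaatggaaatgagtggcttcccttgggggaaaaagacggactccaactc

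The Igfbp1 window held CAAAACA once, at position -108 from the start, and the Igfbp3 and Igf1 windows held it on neither strand. Its reverse complement, TGTTTTG, was found at positions -111 and -32 for Irs1 and at -37 for Irs2. On either strand, 6.28% of 32851 RefSeq promoter windows of the same length held these letters. The E-box CACGTG, found in 7.15% of the windows, occurred for Irs1 and Irs2, at positions -115 and -44, overlapping TGTTTTG in Irs1 and beside it in Irs2. The other 3 motifs searched on both strands were GTAAACA (3.65% of windows), TTATGTAA (0.938%) and TAGGTCA (2.61%), and no window of the 9 matched members held any of them. Insr had no entry among the promoters. The Igfbp3 window was rich in CG pairs, with 37 of them and a GC content of 71.7%, whereas the Igfbp1 window had 8 and 54.3%, close to the median over all windows of 7 and 52.7%.

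The libraries expressed kidney markers throughout: the summed level of 5 proximal tubule genes lay between 2345 and 3411 FPKM, that of 5 distal nephron genes between 1000.2 and 1755 FPKM, and that of 5 podocyte genes between 29.9 and 67.8 FPKM. Total reads are not in the files, and relative depth, estimated from the steps between low values, ran from 0.42 to 1.5. Transcripts of adjoining tissues differed between libraries. Of the normal chow libraries, 4 held adrenal transcripts: ZT0 replicate 5, ZT4 replicates 2 and 3, and ZT16 replicate 4. Of 15 adipocyte markers, 12 were lower and 1, Lep, was higher under the high-fat diet, and their sum lay between 283 and 3409 FPKM in chow kidneys and between 147 and 931 FPKM in high-fat kidneys. The defining marker Adipoq was detected in all 36 libraries, but in 2 high-fat libraries, ZT12 replicate 5 and ZT20 replicate 4, it stood at only 0.0852 and 0.0963 FPKM. The 2 libraries with the steepest slopes of level over transcript GC content were of the same group and went opposite ways: 0.45 log2 units per 10 percentage points in normal chow ZT4 replicate 2 and -0.40 in ZT4 replicate 4.

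The genes covered a wide range of levels. Igfbp3 was by far the most abundant, with a mean of 99.1 ± 17.8 FPKM (SD, n = 36). Igf1r followed with 8.21 ± 1.30 FPKM, Foxo1 with 5.11 ± 0.69, Pik3r1 with 4.67 ± 0.93 and Insr with 4.27 ± 1.07. Igfbp1, at 4.02 ± 2.79 FPKM, had nearly the same mean as Insr but a far wider spread. Its highest library exceeded its lowest by 37.9-fold, against 1.88-fold for Igfbp3 and 2.01-fold for Igf1r. Igf1 averaged 1.46 ± 0.53 FPKM, Irs1 0.870 ± 0.196, Foxo3 0.646 ± 0.546 and Irs2 0.347 ± 0.343. Neighbours in this order from Foxo1 to Igfbp1 differed by less than their SDs. FPKM is scaled to length, so these levels can be set side by side between genes.

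**Figure D1:**
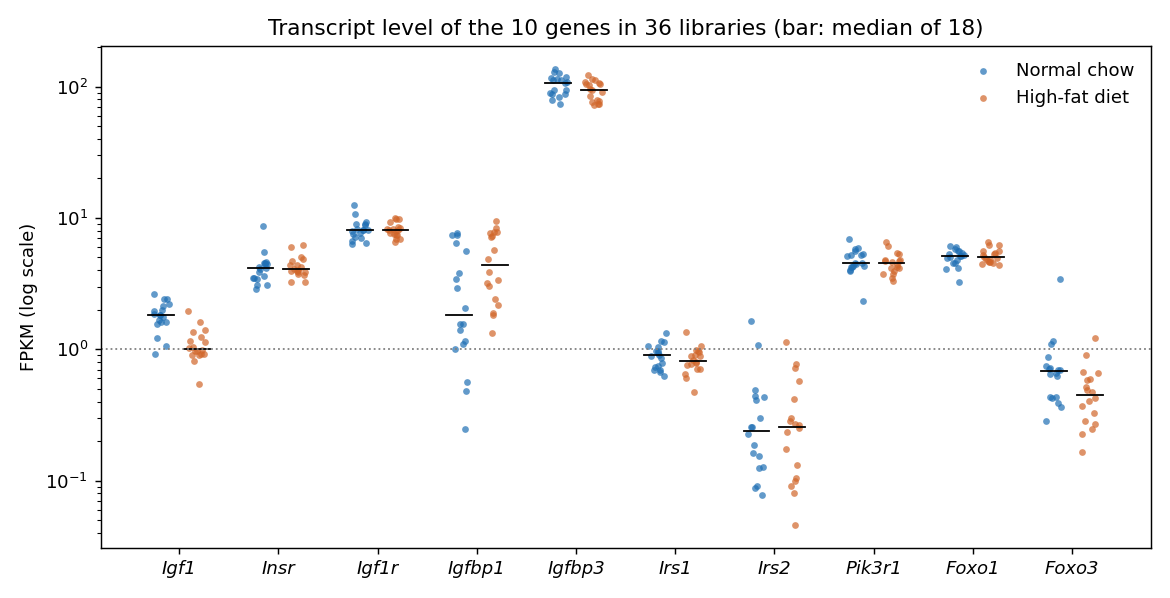
FPKM of each gene on a log axis, with 1 point per library, 18 libraries per diet, and a bar at the median. The dotted line marks 1 FPKM. Igfbp3 sits alone near 100, Igfbp1 has the widest spread of the tested genes within each diet (0.249 to 7.67 FPKM under chow and 1.33 to 9.42 with the high-fat diet), and for Igf1 the high-fat points lie lower (medians of 1.82 and 1.01 FPKM).

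Igfbp1, the insulin-repressed binding protein, was high in the light phase and low in the dark phase under both diets, and its level over the day was higher under the high-fat diet. Under normal chow the values in FPKM were 2.95, 7.67 and 0.480 at ZT0, 7.40, 6.39 and 3.41 at ZT4, and 3.79, 7.38 and 1.56 at ZT8. They were 5.62, 1.41 and 1.56 at ZT12, 0.563, 1.16 and 1.09 at ZT16, and 2.06, 0.249 and 1.00 at ZT20. Mice on chow thus differed widely from each other at ZT0, ZT8 and ZT12, and all were low at ZT16. Under the high-fat diet the values were 7.80, 7.31 and 7.70 FPKM at ZT0, 9.42, 7.12 and 7.76 at ZT4, and 8.41, 4.87 and 5.69 at ZT8. They were 1.81, 3.38 and 3.19 FPKM at ZT12, 3.86, 2.40 and 1.88 at ZT16, and 2.18, 1.33 and 3.01 at ZT20. Among high-fat samples, the lowest value from ZT0 to ZT8 was 4.87 FPKM and the highest from ZT12 to ZT20 was 3.86. The chow values of these 2 spans overlapped. This split was not one of the tests, and the share of all genes separated in this way was not counted.

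The fitted peak-to-trough difference of Igfbp1 was 2.10 ± 0.52 (SE) on the log2(FPKM + 0.5) scale in chow-fed mice, a 4.28-fold change (limma F test over 18 libraries, adjusted p = 0.0430). Under the high-fat diet it was 1.87 ± 0.26, or 3.67-fold (adjusted p = 0.000425). The fitted peaks fell at 5.59 ± 0.95 h (SE) and 4.04 ± 0.52 h after lights on, in the middle of the light phase. By the size of this difference Igfbp1 ranked 41 of the 11144 tested genes under normal chow and 36 with the high-fat diet. The 2 rhythms did not differ by the test of the difference itself (unadjusted p = 0.399, adjusted p = 1.00). The call under normal chow is close to the threshold: it held in 5 of 15 alternative analyses and in 25 of 36 fits that left out 1 library, with adjusted p between 0.0196 and 0.0870 in the latter. The libraries whose removal ended it were normal chow ZT0 replicate 1, ZT4 replicates 2 and 3, ZT8 replicates 1 and 4, ZT12 replicate 5, ZT16 replicates 1, 4 and 5, and ZT20 replicates 3 and 5. The chow rhythm was fitted on the 18 chow libraries alone, so leaving out a high-fat library could hardly change it. The same holds for the alternative without the libraries low in Adipoq, all of them high-fat. The high-fat call held in all 36 fits that left out 1 library and in 14 of 15 alternatives. Without ZT0 and ZT4 the high-fat difference was 1.44 (limma F test, adjusted p = 0.0833). Leaving out chow libraries, singly or those with adrenal transcripts, could hardly change this call, as its fit used the 18 high-fat libraries alone.

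Averaged over the 6 times, Igfbp1 was higher under the high-fat diet by 0.80 ± 0.22 log2 units (limma, adjusted p = 0.0129), with means of 3.10 ± 2.63 FPKM (SD, n = 18) under chow and 4.95 ± 2.70 under the high-fat diet. By the size of its rise it ranked 35 of all genes tested. The high-fat mean was the higher at 5 of 6 times, and at ZT16 all high-fat values exceeded all chow values, which 7.12% of all genes also did at that time. At single times the difference did not pass the adjusted threshold. The order of the 12 group means ran from high-fat ZT4 (8.10 ± 1.19, n = 3) and ZT0 (7.60 ± 0.26) through high-fat ZT8 (6.33 ± 1.86) and chow ZT4 (5.73 ± 2.07) to chow ZT20 (1.10 ± 0.91) and ZT16 (0.938 ± 0.326), and the ranges of all 11 neighbouring pairs overlapped. Since this is whole tissue, a change in the number of expressing cells and a change in transcript per cell cannot be told apart, for this gene and for those below. The adipocyte score, the mean log2(FPKM + 0.5) of Adipoq, Plin1, Cidec, Retn and Adig, was 4.45 ± 1.13 (SD, n = 18) under chow and 2.63 ± 1.5 under the high-fat diet. All of these markers were lower under the high-fat diet, and Lep, the listed marker that was higher, is not in the score. The score thus differs with diet, and a score from other markers was not tried. With this score as a covariate the Igfbp1 difference was 0.50 ± 0.28 (adjusted p = 0.358) and was no longer called, nor was it without ZT0 and ZT4 (0.71 ± 0.24, adjusted p = 0.0522). What fat transcripts contribute to it was not tested.

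Igfbp3, which encodes the main IGF carrier, had a shallower rhythm with the same daytime maximum. Under normal chow it read 95.0, 128 and 87.8 FPKM at ZT0, 93.5, 137 and 112 at ZT4, 126, 119 and 117 at ZT8, 114, 113 and 107 at ZT12, 107, 79.1 and 83.0 at ZT16, and 88.1, 89.7 and 73.6 at ZT20. Under the high-fat diet it read 123, 107 and 91.4 FPKM at ZT0, 113, 109 and 104 at ZT4, 115, 105 and 103 at ZT8, 78.5, 93.7 and 96.0 at ZT12, 74.0, 84.6 and 76.6 at ZT16, and 74.0, 72.8 and 77.3 at ZT20. The lowest values of both diets came at ZT16 and ZT20. At ZT12 the chow samples were still near their maximum, while all 3 high-fat samples had lower values than each of them; the same separation held at ZT8. Such separation at 2 or more of 6 times was found for 13.6% of all genes tested.

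The fitted peak-to-trough difference of Igfbp3 was 0.52 ± 0.12 log2 units under chow (1.44-fold, limma F test, adjusted p = 0.0279) and 0.59 ± 0.09 under the high-fat diet (1.51-fold, adjusted p = 0.000976). The peaks were at 7.07 ± 0.88 h and 5.00 ± 0.57 h. The high-fat peak was thus 2.07 h earlier, and that of Igfbp1 1.55 h earlier, but neither difference in rhythm passed its test (for Igfbp3, unadjusted p = 0.145 and adjusted p = 1.00). The high-fat rhythm was called in all 16 alternatives; the chow rhythm in 12 of 16 and in 31 of 36 fits with 1 library left out, with adjusted p up to 0.0714. It was lost without chow ZT8 replicate 1 or 4, ZT16 replicate 4 or 5, or ZT20 replicate 5. Each rhythm was fitted on the 18 libraries of its own diet, so leaving out libraries of the other diet could hardly change its call. Over the day, Igfbp3 averaged 104 ± 18.3 FPKM (SD, n = 18) under chow and 94.3 ± 16.3 under the high-fat diet, a difference of -0.14 ± 0.05 log2 units that missed the threshold (adjusted p = 0.0819). It passed with the adipocyte score as a covariate (-0.25 ± 0.06, adjusted p = 0.0128), without the 4 libraries with adrenal transcripts (-0.17 ± 0.05, adjusted p = 0.0220), without ZT0 and ZT4 (-0.21 ± 0.05, adjusted p = 0.00893), and without chow ZT0 replicate 5, chow ZT4 replicate 2 or high-fat ZT0 replicate 1. In total this difference was called in 5 of 15 alternatives and in 3 of 36 fits with 1 library left out. It was smaller with median ratio rescaling (-0.11, limma, adjusted p = 0.198) and upper quartile rescaling (-0.10, adjusted p = 0.221). With the GC trend removed it was -0.12 (adjusted p = 0.163).

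**Figure D2:**
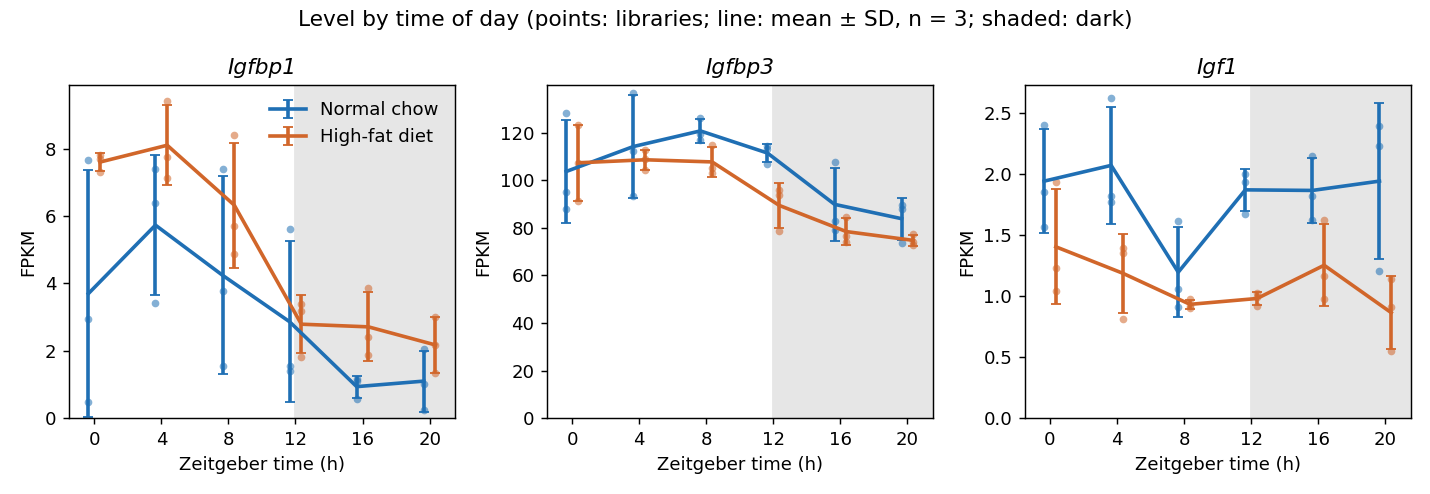
FPKM of Igfbp1, Igfbp3 and Igf1 against zeitgeber time in h, in chow (blue) and high-fat (orange) kidneys; points are single libraries, lines join group means with SD (n = 3), and the shaded span is the dark phase. Both binding proteins decline from the light into the dark phase, and the high-fat mean of Igf1 is the lower at all 6 times.

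Igf1, the growth factor itself, was lower under the high-fat diet. Under normal chow it read 1.86, 1.57 and 2.41 FPKM at ZT0, 1.77, 2.63 and 1.82 at ZT4, 1.62, 0.913 and 1.06 at ZT8, 1.94, 1.68 and 2.00 at ZT12, 1.82, 2.15 and 1.63 at ZT16, and 2.23, 1.21 and 2.39 at ZT20. Under the high-fat diet it read 1.24, 1.04 and 1.94 FPKM at ZT0, 1.40, 1.35 and 0.817 at ZT4, 0.921, 0.906 and 0.975 at ZT8, 0.994, 1.03 and 0.924 at ZT12, 0.976, 1.16 and 1.63 at ZT16, and 1.14, 0.910 and 0.549 at ZT20. The high-fat values were all below the chow values at ZT4, ZT12, ZT16 and ZT20, and the groups overlapped at ZT0 and ZT8. Such separation at 4 or more of 6 times was found for 2.41% of all genes tested.

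The means were 1.82 ± 0.46 FPKM (SD, n = 18) under chow and 1.11 ± 0.32 under the high-fat diet, and Igf1 fell by 0.53 ± 0.09 on the log2(FPKM + 0.5) scale (limma, adjusted p = 6.58e-05). It ranked 168 of all genes tested, counted from the most negative difference. The call held in 14 of 14 alternatives that kept the gene, with adjusted p between 2.66e-05 and 0.0236, and in all 36 fits with 1 library left out (-0.57 to -0.50). At single times it did not pass the adjusted threshold, with unadjusted p of 0.00719 at ZT4, 0.00331 at ZT12, 0.0446 at ZT16 and 0.000519 at ZT20. No 24 h rhythm was called under chow (adjusted p = 0.532) or the high-fat diet (adjusted p = 0.836). Ordered by mean, 5 chow groups led, from ZT4 (2.07 ± 0.48, n = 3) to ZT16 (1.87 ± 0.27), and chow ZT8 (1.20 ± 0.37) ranked eighth, between high-fat ZT16 (1.25 ± 0.33) and ZT4 (1.19 ± 0.32). High-fat ZT20 was the lowest (0.866 ± 0.298), and no neighbouring pair differed beyond its larger SD.

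Adipocyte markers, 12 of 15 of them, were lower under the high-fat diet as Igf1 was, and their part in its difference was not tested. With the adipocyte score as a covariate the Igf1 difference was -0.39 ± 0.11 (adjusted p = 0.0236), and the slope of Igf1 on the score was 0.07 ± 0.04 log2 units per unit of score (unadjusted p = 0.0738, adjusted p = 0.993). Across all genes, 0.664% had a slope that passed. Without the 2 libraries nearly free of Adipoq the difference was -0.49 ± 0.09 (adjusted p = 0.000304).

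**Figure D3:**
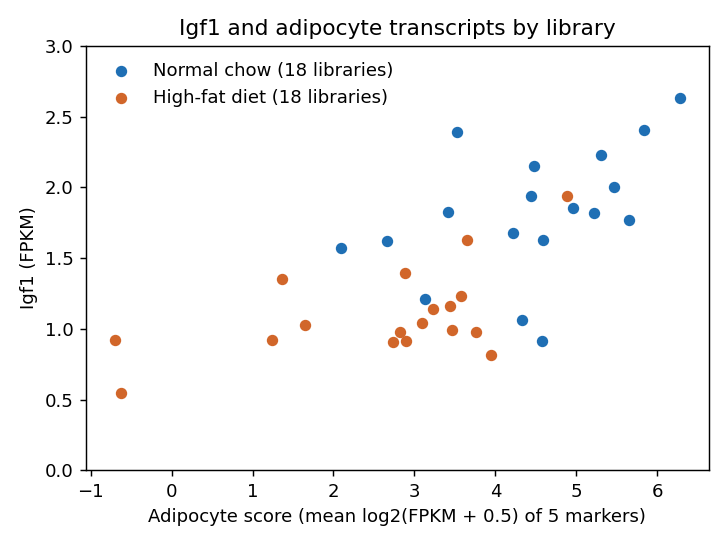
Igf1 in FPKM against the adipocyte score of each library, 18 per diet. The points rise from left to right over the 36 libraries of both diets pooled. The high-fat mean is the lower on both axes, so the rise includes the difference between diets. The 2 high-fat libraries nearly free of Adipoq are at the far left.

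The receptors differed little between diets or times. Insr, the insulin receptor, had a lowest, median and highest value of 2.90, 4.13 and 8.70 FPKM under chow and 3.25, 4.06 and 6.25 under the high-fat diet, and the groups overlapped at all 6 times. Its difference over the day was 0.04 ± 0.09 log2 units (limma, adjusted p = 0.805). Igf1r, the IGF1 receptor, ran from 6.28 through a median of 8.06 to 12.6 FPKM under chow and from 6.56 through 8.12 to 9.95 under the high-fat diet, also with overlap at all 6 times. Its difference was -0.01 ± 0.06 (adjusted p = 0.954). The highest value of both receptors came from chow ZT4 replicate 4 and the lowest chow value of Insr from ZT4 replicate 2, the libraries at the opposite ends of the slope over GC content. Neither receptor was called rhythmic: the adjusted p of Insr was 0.600 under chow and 0.839 under the high-fat diet, and that of Igf1r 0.270 and 0.486. The highest group mean of Igf1r was that of high-fat ZT8 (9.69 ± 0.33, n = 3) and the lowest that of chow ZT20 (7.13 ± 0.90).

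Of the adaptors, Irs1 read 0.971, 0.897 and 0.978 FPKM under chow and 0.986, 0.906 and 0.964 under the high-fat diet at ZT0, where its samples were closest. At the other times Irs1 spread more, as at ZT4, with means of 0.953 ± 0.359 (SD, n = 3) under chow and 0.652 ± 0.183 under the high-fat diet. Over all times it ran from 0.623 to 1.34 FPKM under chow and from 0.469 to 1.35 under the high-fat diet, with medians of 0.898 and 0.815. Irs2 was the lowest and, relative to its level, among the most variable: from 0.0775 to 1.63 FPKM under chow and from 0.0461 to 1.14 under the high-fat diet, with medians of 0.240 and 0.258. Its highest chow values were 1.63 at ZT4 replicate 4 and 1.08 at ZT16 replicate 4, each far from the other samples of its group. At such levels few reads lie behind a value, and absolute depth is not known. When all 19103 detected genes were fitted without a level filter, the difference over the day was -0.07 ± 0.07 for Irs1 (adjusted p = 0.587) and -0.03 ± 0.15 for Irs2 (adjusted p = 0.935). Pik3r1, the regulatory subunit of phosphoinositide 3-kinase, ran from 2.34 through a median of 4.54 to 6.92 FPKM under chow and from 3.34 through 4.52 to 6.52 under the high-fat diet. Its difference was -0.05 ± 0.08 log2 units (adjusted p = 0.723), and its highest group mean was that of chow ZT16 (5.64 ± 0.34, n = 3).

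The transcription factor Foxo1 had the smallest ratio of highest to lowest library after Igfbp3, 2.00-fold, and ran from 3.26 through a median of 5.09 to 6.16 FPKM under chow and from 4.39 through 5.03 to 6.53 under the high-fat diet. It overlapped between diets at all 6 times, with a difference of 0.04 ± 0.06 log2 units (limma, adjusted p = 0.718). The 2 highest group means were both at ZT8, 5.86 ± 0.68 FPKM under the high-fat diet and 5.62 ± 0.20 under chow (SD, n = 3), yet no rhythm was called (adjusted p = 0.431 under chow and 0.634 under the high-fat diet). Foxo3 had a median of 0.679 FPKM under chow and 0.451 under the high-fat diet. Its high-fat mean was the lower at all 6 times, though the groups overlapped at each. The fit without a level filter gave -0.32 ± 0.14 log2 units (unadjusted p = 0.0303, adjusted p = 0.154). Chow ZT4 replicate 4 read 3.45 FPKM of Foxo3, against 0.665 and 0.285 in the other samples of that group, and the next highest value of all 36 libraries was 1.23.

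Counted together, 2 of the 7 tested members were rhythmic under chow (7.77% of all tested genes were) and 2 under the high-fat diet (7.3% of all), namely Igfbp1 and Igfbp3 each time. Of all genes, 3.49% were rhythmic under both diets. The chow count fell to 0 with rescaling of the libraries by median ratio or upper quartile, with time as a factor, and without the 4 libraries with adrenal transcripts. None of the 7 had a rhythm that differed between diets by limma, at an adjusted p (0.0269% of all genes) or at an unadjusted p under 0.05 (3.17% of all genes). Over the day 1 member was higher (5.25% of all genes) and 1 lower (11.4% of all). With the libraries rescaled by median ratio these shares were 7.51% and 7.5%, and by upper quartile 7.54% and 7.5%, and each member's call held. The median difference of the 7 was -0.01 log2 units, against -0.03 over all genes, and their median peak-to-trough difference was 0.32 under chow and 0.17 under the high-fat diet, against 0.23 and 0.19. At single times limma called 0 of the 7; an unadjusted p under 0.05 was reached by 1 member at ZT0 (Igfbp1), 1 at ZT4 and 1 at ZT20 (Igf1), 2 at ZT12 (Igf1 and Igfbp3), 2 at ZT16 (Igf1 and Igfbp1) and 0 at ZT8. That mark was reached by 14.1% of all genes at ZT0, 17.3% at ZT4, 9.57% at ZT8, 7.12% at ZT12, 7.32% at ZT16 and 6.45% at ZT20. The share of all genes called at an adjusted p was 1.59% at ZT0, 1.61% at ZT4, 0.332% at ZT8, 0.368% at ZT12, 0.556% at ZT16 and 0.26% at ZT20. Leaving out 1 library gave a single-time call for Igfbp1 at ZT0 (without chow ZT0 replicate 4, 1.3% of all genes called in that fit), for Igf1 and Insr at ZT4 (without chow ZT4 replicate 2, 16.2% of all genes) and for Igf1 at ZT20 (without chow ZT20 replicate 3, 0.206% of all genes).

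**Figure D4:**
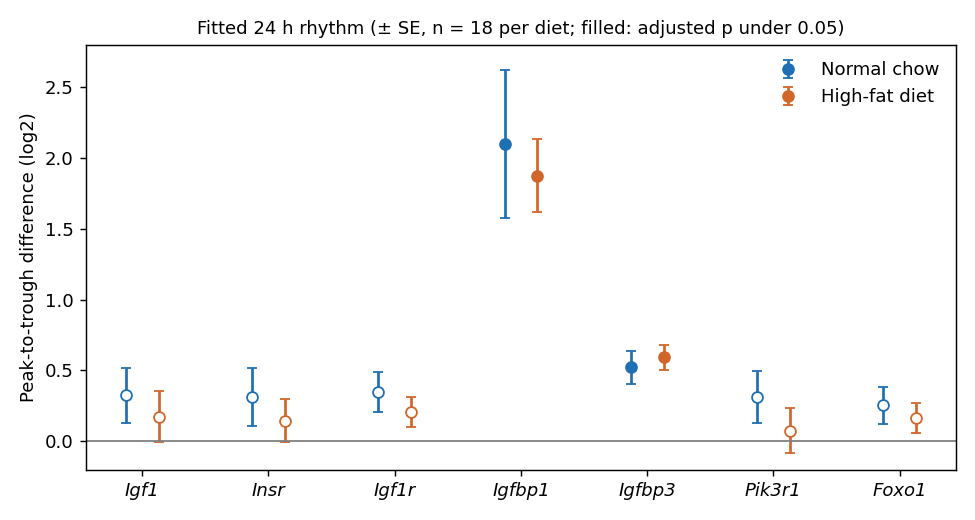
Fitted peak-to-trough difference of a 24 h cosine, in log2 units with SE, for the 7 tested genes under each diet (n = 18 libraries); filled points passed an adjusted p of 0.05. Igfbp1 reaches 2.10 and 1.87, Igfbp3 0.52 and 0.59, and the open points of the other 5 genes did not pass.

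**Figure D5:**
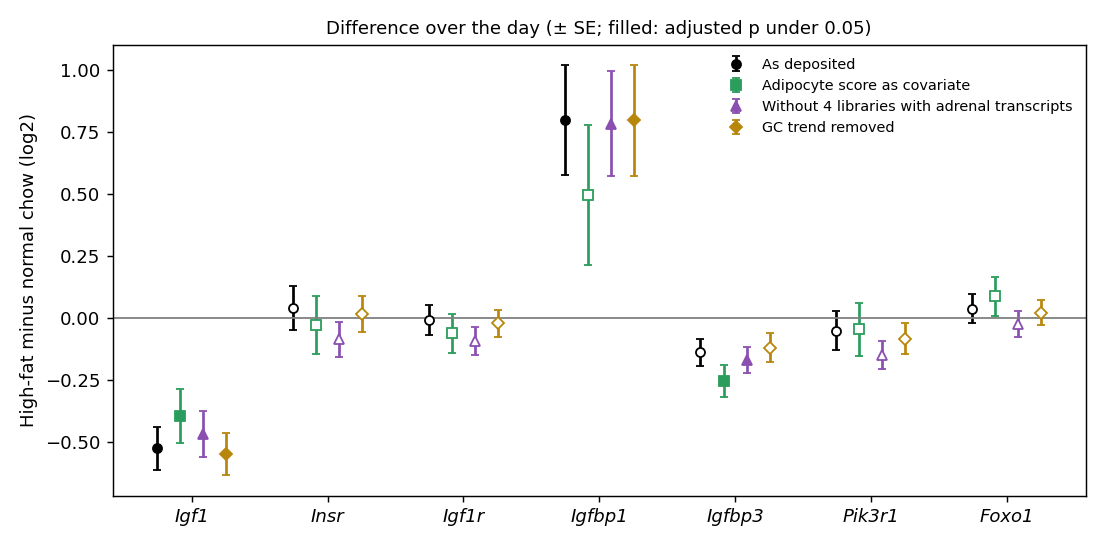
High-fat minus normal chow over the day, in log2 units with SE, for the 7 tested genes under 4 analyses; filled points passed an adjusted p of 0.05. Igf1 lies below 0 and is filled in each, Igfbp1 is open with the adipocyte score as a covariate (0.50), and Igfbp3 is filled with that score (-0.25) and without the libraries with adrenal transcripts (-0.17).

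Around these genes, 78 others of the pathway were listed and 58 were tested. Of these, 5 were rhythmic under chow (7.77% of all genes were), 5 under the high-fat diet (7.3%) and 1 under both (3.49%). None had a rhythm that differed between diets at an adjusted p (0.0269% of all genes did). Over the day 8 were higher (5.25% of all genes) and 6 lower (11.4%) under the high-fat diet, and their median difference was -0.02 log2 units. Among 6 further ligands and receptors, 3 were tested: Ghr, the growth hormone receptor, was higher by 0.15 ± 0.05 (adjusted p = 0.0416), and Igf2r and Insrr were not called. Ins1 was listed at 0 in all libraries. Among 10 further genes of IGF binding, 5 were tested. Igfals, which encodes the acid-labile subunit that joins IGFBP3 and IGF in the circulating complex, fell by 0.55 ± 0.08 log2 units (adjusted p = 3.11e-05), from a mean of 7.00 to 4.63 FPKM. Igfbp6, a binding protein with a preference for IGF2, fell by 1.01 ± 0.23 (adjusted p = 0.00326). With the adipocyte score as a covariate 1 gene of this list was lower rather than 2. Igfbp4, which binds both IGFs, was rhythmic under both diets, with peaks at 12.0 h and 11.1 h, near the start of the dark phase, and peak-to-trough differences of 0.74 and 0.45 (adjusted p = 0.000371 and 0.00521).

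Of 15 further adaptors and brakes of the receptors, 10 were tested, 3 were lower (11.4% of all genes were) and 0 higher (5.25% of all). Socs2, a feedback inhibitor of growth hormone signalling, fell by 0.82 ± 0.18 (limma, adjusted p = 0.00161), Grb14, which inhibits the insulin receptor, fell by 0.20 ± 0.05 (adjusted p = 0.00485), and Enpp1 fell by 0.23 ± 0.06 (adjusted p = 0.0114). Ptpn1, a phosphatase that switches the insulin receptor off, was rhythmic under the high-fat diet, with a peak-to-trough difference of 0.35 (adjusted p = 0.0292). None of 13 tested genes of the phosphoinositide 3-kinase and AKT step passed any of these tests at an adjusted p. Among 12 tested genes of the mTOR branch, Mtor rose by 0.23 ± 0.07 (adjusted p = 0.0245) and Eif4ebp1, a repressor of translation, fell by 0.34 ± 0.09 (adjusted p = 0.0119). Foxo4, a relative of Foxo1 that had no place among the 10, rose by 0.12 ± 0.03 (adjusted p = 0.00667).

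Of 14 tested genes listed as FOXO targets, 5 were higher under the high-fat diet (5.25% of all genes were) and 0 lower (11.4% of all). Pck1, the enzyme that commits carbon to glucose production, rose by 1.24 ± 0.09 log2 units (limma, adjusted p = 1.00e-10), from 499 to 1157 FPKM on average. G6pc, which releases the glucose, rose by 0.48 ± 0.09 (adjusted p = 0.000417), from 170 to 242 FPKM. Cited2, a transcriptional regulator, rose by 0.28 ± 0.09 (adjusted p = 0.0258) and Cat, the peroxide-degrading catalase, by 0.14 ± 0.04 (adjusted p = 0.0308). Txnip, an inhibitor of thioredoxin and of glucose uptake, rose by 0.20 ± 0.07 (adjusted p = 0.0456). By rhythm, 3 of the 14 passed under chow (7.77% of all genes did) and 2 under the high-fat diet (7.3%). Under chow these were Pck1 (peak at 14.4 h, limma F test, adjusted p = 0.0246), Cited2 (3.54 h, adjusted p = 0.0228) and Txnip (3.33 h, adjusted p = 0.0252). Under the high-fat diet they were G6pc (19.7 h, adjusted p = 0.0306) and Bnip3, a gene of mitochondrial turnover (11.6 h, adjusted p = 0.00370). The peak-to-trough difference of Bnip3 was 0.66. None of the 14 had a rhythm that differed between diets at an adjusted p by limma (0.0269% of all genes did), so passing under 1 diet alone shows no difference. The median level difference of the 14 was 0.14, against -0.03 over all genes. The count of 5 fell to 2 with the adipocyte score as a covariate and to 3 without chow ZT0 replicate 5, high-fat ZT0 replicate 1 or high-fat ZT4 replicate 3.

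For each tested gene, the genes with the most similar pattern, up to 3, are given by Pearson's r of the 12 group means of log2(FPKM + 0.5), among 6899 or 6900 genes with a mean of at least 5 FPKM. The group means share libraries between genes, so r describes likeness only. Igfbp1 was nearest to Asb9 (r = 0.943), Mafk (0.921) and Exosc7 (0.919). Igfbp3 was nearest to Cnot10 (0.942), Fam214b (0.920) and the clock repressor gene Nr1d1 (0.915). Igf1 was nearest to Retn (0.935), Mrap (0.930) and Thrsp (0.928), of which Retn and Thrsp are on the adipocyte marker list and Retn is in the adipocyte score. Insr was nearest to Rmnd5a (0.963) and Tgfbr2, Igf1r to Gmnn (0.943), Tgds and Fam134c, Foxo1 to Lrrc58 (0.959), Scn4b and Dnajb6, and Pik3r1 to Bpnt1 (0.952), Wdr72 and Dnajc21.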

How the data were processed

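Polyadenylated kidney RNA was sequenced in 36 libraries, 3 for each of 12 groups of diet and time, and groups were read from the sample titles; the tag with the diet mentions ZT3, a time at which no sample was taken. The authors deposited FPKM values in 1 table of 24883 rows per diet. CASAVA 1.8.2, Bowtie and Cuffnorm with mm10 are named by the submitters' processing notes; whether 1 Cuffnorm run made both tables is not given in the sources used here, so a difference between runs and a difference between diets in level cannot be told apart. Per the labels' protocols, RNA came from TRIzol extraction and TruSeq RNA v2 libraries.

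The 817 rows of 280 repeated symbols were left out. FPKM values were tested as log2(FPKM + 0.5) where their mean was at least 1, with limma 3.58.1 (R 4.3.3, mean-variance trend) and Benjamini-Hochberg adjustment over all 11144 genes, threshold 0.05. This scale understates changes of low genes. Rhythm was the F test of cosine and sine terms of 24 h over 18 libraries, a rhythm difference that of their products with diet over 36, and level a contrast in a model of 12 group means. The mean of the libraries' median log2 ratios was 0.02 under chow and -0.01 under the high-fat diet over 9689 genes, within a tolerance of 0.05. Relative depth was estimated from 935 rarely detected genes whose values lay close together. Among all rarely detected genes, not only these, 89.0% of depth-scaled values above a gene's smallest came within 0.05 of a multiple of it. The scripts were tested on simulated data. No libraries were identical.

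The 10 genes, the lists and the tests were chosen with earlier results of these data known. All 10 genes are named. For each tested gene the 3 most similar genes were found, of which 1 is not reported here. From each further list, up to 4 genes past a test were named by p; Cat and Txnip were named beyond that rule after their values were seen. Alternatives were other pseudocounts, filters and rescalings, a robust prior, a replicate block, time as a factor, an adipocyte score, and leaving out libraries or times; removal of the GC trend, its combinations and leaving out libraries low in Adipoq were added after the data were seen.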

Additional observations from a re-analysis of the deposited data

How the results depend on the processing

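The fall of Igf1 kept its direction and its call under every alternative that tested it. A filter at a mean of 5 FPKM left out Igf1, Igfbp1, Insr and Pik3r1, which gave 0 genes higher, 0 lower and 1 rhythmic under each diet. Of the 7 genes, 2 were rhythmic under chow in the main analysis; the count was 1 with no filter, the robust prior, the adipocyte score, or without ZT0 and ZT4, and 0 with median ratio rescaling, upper quartile rescaling, time as a factor, or without the libraries with adrenal transcripts. Without ZT0 and ZT4, 1 gene was rhythmic under the high-fat diet, 0 were higher and 2 were lower. With the adipocyte score, alone or with the GC trend removed, 0 were higher and 2 lower. Without the libraries with adrenal transcripts 2 were lower, and 3 (Igf1r, Insr and Pik3r1) differed at ZT4, where chow ZT4 replicate 4 is then the only chow sample, is assumed to vary like the other groups, and 4929 of 11112 genes were called. Leaving out 1 library gave 0 to 2 genes rhythmic under chow, 1 to 2 lower over the day, 0 to 1 differing at ZT0, 0 to 2 at ZT4 and 0 to 1 at ZT20; the other counts did not move. The cause of these changes was not tested.

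With the replicate number as a block, 1 gene was rhythmic under chow (688 of all genes rather than 866) and 2 were lower, as Igfbp3 passed (-0.15, adjusted p = 0.0346); with the block and the GC trend removed, 1 was rhythmic under chow. The median correlation of same-numbered libraries of different groups was 0.04 over 119 pairs, 39 of them over 0.1. For libraries with different numbers it was -0.004 over 475 pairs, 139 of them over 0.1. Of the 36 libraries, 4 correlated best with their own number. Whether a number marks samples handled together cannot be told from these correlations. Over all genes, 375 were rhythmic under chow with time as a factor, 515 without the libraries with adrenal transcripts, 270 without ZT0 and ZT4 and 1368 with the GC trend removed. Under the high-fat diet, 3166 of 11144 genes were rhythmic with time as a factor, against 813 in the main analysis. With 1 library left out, 503 to 988 of all genes were higher (988 without chow ZT4 replicate 4) and 1046 to 1763 lower over the day. Rescaling moved the median difference of all genes by at most 0.03 log2 units. Absolute depth is unknown, so counting error at the levels of Igf1, Irs1, Irs2 and Foxo3 could not be given.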
